A study of Capsicum annuum with 6 samples.

Results

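The genes described here are the 8 genes that the study annotated as promoting auxin-mediated signaling at the first branch site of pepper (Capsicum annuum), out of 24829 genes listed. They are Capann_59Chr11g025280, Capann_59Chr12g012160, Capann_59Chr12g012110, Capann_59Chr02g022100, Capann_59Chr02g022070, LJ_newGene_9051, LJ_newGene_9053 and LJ_newGene_9004. The first branch site is the junction where the main stem forks, and it was sampled at early flowering from accession B010, a compact plant with a narrow fork, and accession B003, a loose plant with a wide one. Each accession had 3 libraries, each made from the pooled tissue of 8 plants, and the labels give no treatment. The accessions are 1 genotype each, so the difference between them covers everything in which these genotypes differ, and fewer cells of a type cannot be told apart from less RNA per cell. The 8 genes were chosen by the study as differentially expressed in these same 6 libraries, so their difference between B010 and B003 is given as a description with no test. The deposited values give identifiers without gene names, and none matched the RefSeq gene table used here, so neither the tissue nor the role of a single gene could be checked against markers.

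Auxin is a hormone made mainly in young leaves and shoot tips and moved from cell to cell by carrier proteins. Nuclear F-box receptors bind it and have Aux/IAA repressors degraded, which frees auxin response factors to switch on early genes such as those of the SAUR, GH3 and Aux/IAA families. In stems, auxin that gathers on the lower side after sensing of gravity by starch-filled amyloplasts drives unequal elongation and so sets the angle at which a branch grows, as known mainly from Arabidopsis and rice. Which of these roles each of the 8 genes has is not given in the sources used here.

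For 3 of the genes the study designed quantitative PCR primers, which are shown because they are the designed sequences that tie these identifiers to bases. The qRT-PCR values themselves were not analysed here. All 6 primers are written 5′ to 3′ in lower case.
LJ_newGene_9004 forward: tgtgtccactaagcaaccagcc
LJ_newGene_9004 reverse: tgctttccggttctgttctcat
Capann_59Chr02g022070 forward: gaaggacgttgcgctgtgttgc
Capann_59Chr02g022070 reverse: gccaacttgtgggatgaagggagt
Capann_59Chr12g012110 forward: cccttgcagtccctccttctct
Capann_59Chr12g012110 reverse: ggcctctgggatgttggtgctt
They are 22 to 24 bases long, with a GC content from 45.5% in the reverse primer of LJ_newGene_9004 to 59.1%.

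The libraries held between 29891192 and 47659515 counts on genes, so that the limit allowed by a count of 0, taken as 3 counts, was at most 0.1004 counts per 1000000 (CPM) before scaling. Intervals of this kind cover counting error only. Of 24738 genes that passed the expression filter, 25.3% were differentially expressed genes (DEGs), called by edgeR's quasi-likelihood test at an adjusted p of 0.05 or less where the accessions also differed by 1 log2 unit or more. The share was 12.5% for genes higher in B010 and 12.8% for genes higher in B003, and 54.4% of genes had no overlap between the B010 and B003 libraries. The number of DEGs, 6260 with all libraries, was 3615 without B010 replicate 1 and 4117 without B003 replicate 3. All 8 auxin signaling genes passed the filter and all 8 were DEGs, which largely follows from how they were chosen. All 8 also had libraries that did not overlap between the accessions, which that choice favours but does not fix. Without B010 replicate 1, 5 of the 8 were still DEGs, and by limma on log2(FPKM + 1) also 5. That limma fit, without a filter, called 4791 genes in all, so calls were lost over all genes too. Every log2 fold change is that of B010 relative to B003, and levels are TMM-scaled CPM unless FPKM is named.

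Levels were higher in B010 for 5 of the 8 genes and in B003 for the other 3. The latter held most of the summed FPKM in B003 but less than the other 5 in B010. Summed over the 8 genes, the deposited FPKM, which scale fragments by exon length and by sequencing depth, came to 18.4, 11.2 and 29.7 in B010 replicates 1, 2 and 3. The sums were 85.6, 48.01 and 92.8 in those of B003. The lowest B003 library thus lay above the highest B010 library, and the mean sum was 3.81-fold higher in B003 (75.5 ± 24.04 against 19.8 ± 9.34 FPKM, SD, n = 3 each). The 5 genes higher in B010 summed to 12.6 ± 4.38 FPKM in B010 and 1.06 ± 0.274 FPKM in B003, whereas the other 3 summed to 7.14 ± 5.37 and 74.4 ± 24.3 FPKM (SD, n = 3 each). Capann_59Chr11g025280 and Capann_59Chr12g012160 together made up 25.1% to 44.5% of the sum in the B010 libraries and 95.8% to 97.8% in those of B003. Without Capann_59Chr12g012160, which had the highest mean FPKM over the 6 libraries but exceeded Capann_59Chr11g025280 only in B003 replicate 1, the sum was 2.06-fold higher in B003.

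**Figure D1:**
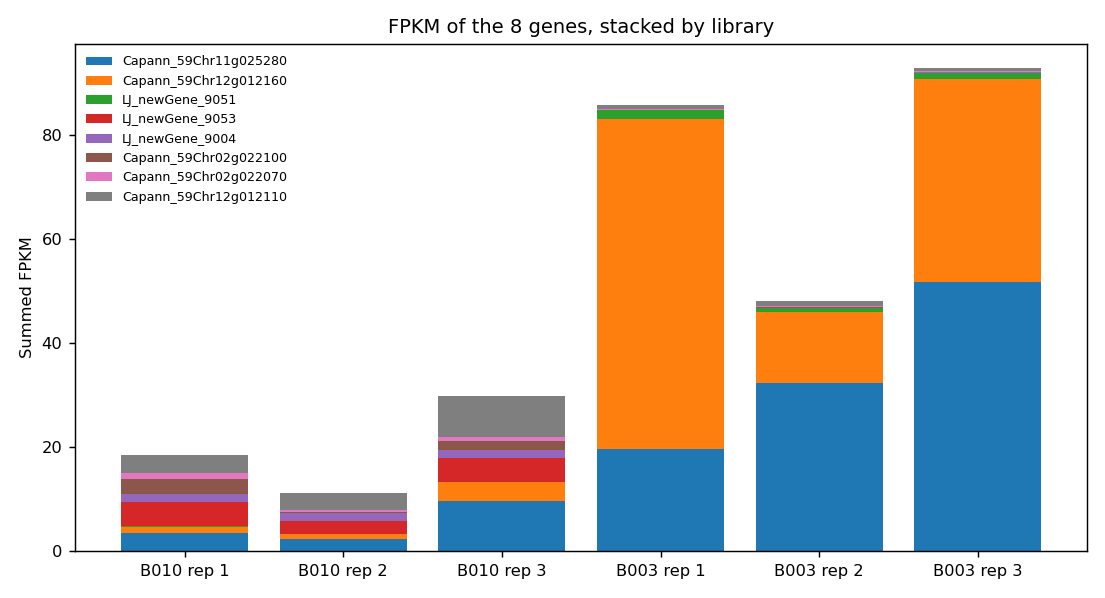
Stacked FPKM of the 8 auxin signaling genes in each of the 6 libraries, with 1 colour per gene. The B003 sums of 48.01 to 92.8 FPKM consist almost wholly of Capann_59Chr11g025280 and Capann_59Chr12g012160, while the B010 sums of 11.2 to 29.7 FPKM are spread over more genes.

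Capann_59Chr12g012160 had the largest difference of the 3 genes that were higher in B003. It had 1.22, 1.196 and 3.30 CPM in B010 replicates 1, 2 and 3 and 60.3, 14.6 and 41.0 CPM in those of B003. Each B003 library lay well above every B010 library, although the B003 libraries themselves spread 4.12-fold. Its log2 fold change was -4.34 (SE, standard error, 0.70), and it ran from -5.001 without B010 replicate 3 to -3.87 without B003 replicate 1. On the FPKM scale its mean stood at the 17.0th percentile of all listed genes in B010 and at the 87.4th in B003.

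Capann_59Chr11g025280 followed the same direction with a smaller difference. Its levels were 3.98, 2.86 and 9.97 CPM in B010 and 21.4, 39.1 and 62.0 CPM in B003. B010 replicate 3 stood apart from the other B010 libraries but still lay below the lowest B003 library. The log2 fold change was -2.86 (SE 0.61), and it ran from -3.57 without B010 replicate 3 to -2.43 without B003 replicate 3.

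LJ_newGene_9051, a locus outside the cv.59 gene identifiers, was higher in B003 at a far lower level. Its B010 libraries held 16, 5 and 4 counts and its B003 libraries 152, 50 and 94, which is 0.337, 0.181 and 0.118 CPM against 3.87, 1.62 and 3.06 CPM. The B010 values are near the limit of detection, and the log2 fold change was -3.68 (SE 0.53). The ratio of its counts to its FPKM, after scaling for the library, differed by up to 1.32-fold between libraries with at least 10 counts, against a median of 1.00-fold and a 95th percentile of 1.02-fold over genes with at least 100 counts in every library. In all, 5 of the 8 genes lay above that percentile, the others being Capann_59Chr02g022070 (1.17-fold), Capann_59Chr02g022100 (1.08-fold), Capann_59Chr12g012110 (1.04-fold) and LJ_newGene_9053 (1.03-fold). None of the 8 genes had 100 counts in every library, so none belongs to the set that gave the percentile. The share of genes with similarly few counts that lie above it was not computed.

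Among the genes higher in B010, LJ_newGene_9053 had the largest difference. It was counted 452, 153 and 291 times in B010, or 9.52, 5.55 and 8.58 CPM, and 0, 5 and 0 times in B003. The B003 level rests on 5 counts in a single library, so the log2 fold change of 7.19 (SE 0.92) has no precise value, and it ran from 6.54 without B003 replicate 1 to 11.14 without B003 replicate 2. LJ_newGene_9004 was the steadiest of the 8 genes in B010, at 4.34, 4.35 and 3.804 CPM, a coefficient of variation of 7.51%. In B003 it was counted 0, 4 and 8 times, and its log2 fold change was 5.04 (SE 0.80), which became 4.39 without B003 replicate 1 and 6.06 without B003 replicate 3.

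Capann_59Chr02g022100 was the most variable. Its B010 libraries had 250, 14 and 93 counts, or 5.27, 0.508 and 2.74 CPM, a 10.4-fold spread. In B003 it was counted 4, 6 and 0 times, so that B010 replicate 2 lay close to the B003 libraries while still above them. The log2 fold change was 4.81 (SE 1.15), which became 4.01 without B010 replicate 1 and 5.602 without B003 replicate 2. Capann_59Chr02g022070, which lies 3 identifier steps before it on chromosome 2, had 2.74, 1.02 and 1.80 CPM in B010 and 0.534, 0.388 and 0.488 CPM in B003. Here too B010 replicate 2 was the lowest B010 library, and the log2 fold change of 1.97 (SE 0.43) was the smallest of the 8 genes.

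Capann_59Chr12g012110 lies 5 identifier steps before Capann_59Chr12g012160 and went the other way. It had 2.89, 3.05 and 5.66 CPM in B010 and 0.509, 0.905 and 0.488 CPM in B003, a log2 fold change of 2.61 (SE 0.42). No library overlapped with one of the other accession. The same crossing of directions was seen in LJ_newGene_9051 and LJ_newGene_9053, whose numbers are 2 apart. The counting program and its treatment of reads that align to several places are not given in the sources used here, so counts of genes with near-identical copies are uncertain, and whether these neighbours are copies was not tested.

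**Figure D2:**
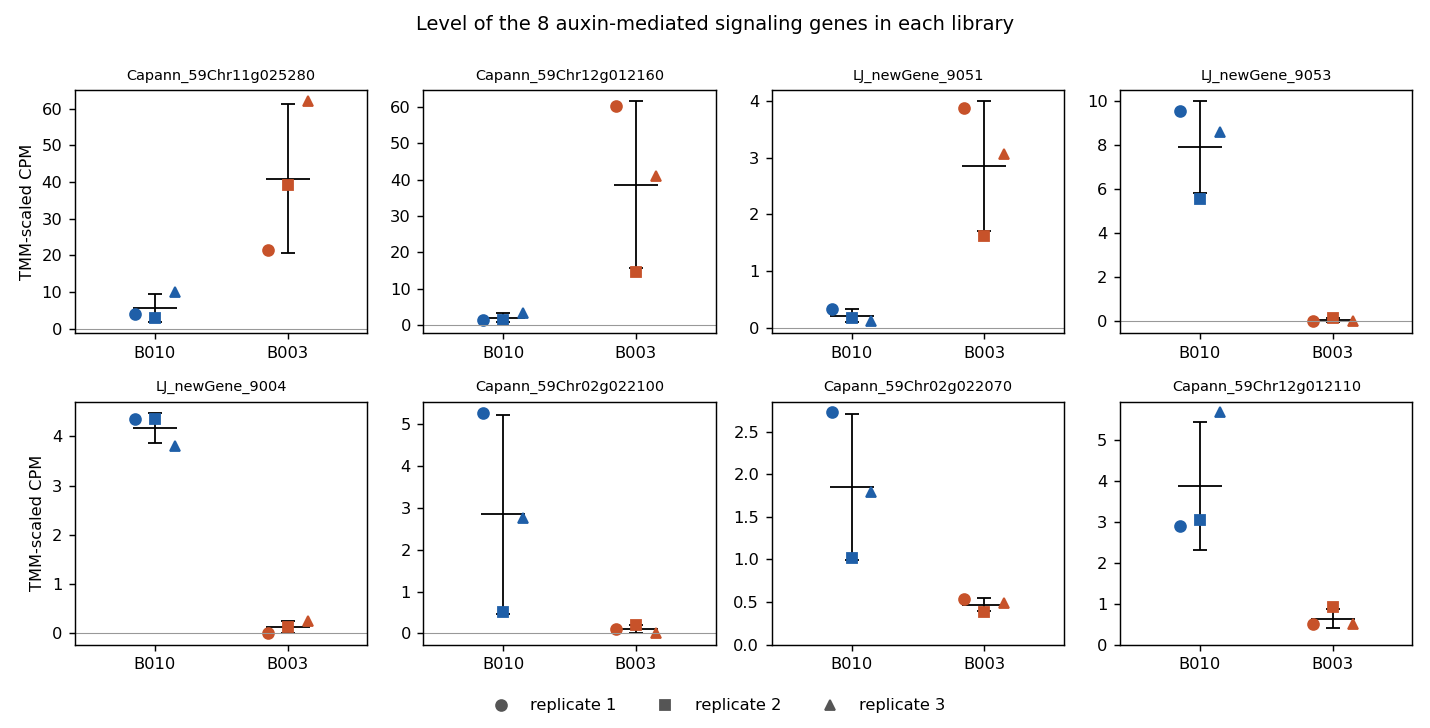
TMM-scaled CPM of each of the 8 auxin signaling genes in B010 (blue) and B003 (orange), with 1 symbol per replicate, a bar for the mean and whiskers for the SD (n = 3), each panel with its own linear axis. In every panel the libraries of the accessions do not overlap. The lowest B010 and highest B003 libraries have 0.508 and 0.194 CPM for Capann_59Chr02g022100, and 1.02 and 0.534 CPM for Capann_59Chr02g022070.

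On the FPKM scale, which allows levels of genes to be compared per length, the order differed between the accessions. In B010, Capann_59Chr11g025280 (5.09 ± 3.96 FPKM, SD, n = 3) and Capann_59Chr12g012110 (4.92 ± 2.52 FPKM) came first, followed by LJ_newGene_9053 (3.88 ± 1.23 FPKM). Next came Capann_59Chr12g012160, Capann_59Chr02g022100 and LJ_newGene_9004 with means from 1.96 to 1.48 FPKM. The neighbours in this order had overlapping libraries. Only the last steps were clear of the spread, from LJ_newGene_9004 down to Capann_59Chr02g022070 (0.792 ± 0.381 FPKM) and from there to LJ_newGene_9051 (0.0875 ± 0.0754 FPKM). Capann_59Chr02g022100, with 0.229 FPKM in B010 replicate 2, overlapped with Capann_59Chr02g022070. In B003, Capann_59Chr12g012160 (38.8 ± 24.8 FPKM) and Capann_59Chr11g025280 (34.5 ± 16.1 FPKM) overlapped with each other and lay above all the rest. LJ_newGene_9051 (1.14 ± 0.496 FPKM) and Capann_59Chr12g012110 (0.754 ± 0.243 FPKM) overlapped in turn, and Capann_59Chr02g022070 lay clear below them at 0.195 ± 0.0565 FPKM (SD, n = 3 each). The remaining 3 genes had means of at most 0.0469 FPKM in B003 and could not be ordered.

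The spread among libraries of one accession is given as a description, since it enters the test by which the genes were chosen. Measured as the pooled SD of log2 CPM within the accessions, it ran from 0.508 in Capann_59Chr12g012110 to 1.62 in Capann_59Chr02g022100, which are the 74.2nd and the 97.98th percentile of all tested genes. All 8 genes thus varied more between replicates than the median gene. Several of them also had few counts, and the part of counting noise in this was not tested. B010 replicate 2 was the lowest B010 library for 5 of the 8 genes and for 39.4% of all tested genes. B010 replicate 1 was the highest for 4 of the 8 and for 21.8% of all. The libraries did not order the genes in a common way, since B010 replicate 3 was the highest for Capann_59Chr11g025280, Capann_59Chr12g012160 and Capann_59Chr12g012110, at 1.04, 0.95 and 0.62 log2 units above the mean of the accession.

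**Figure D3:**
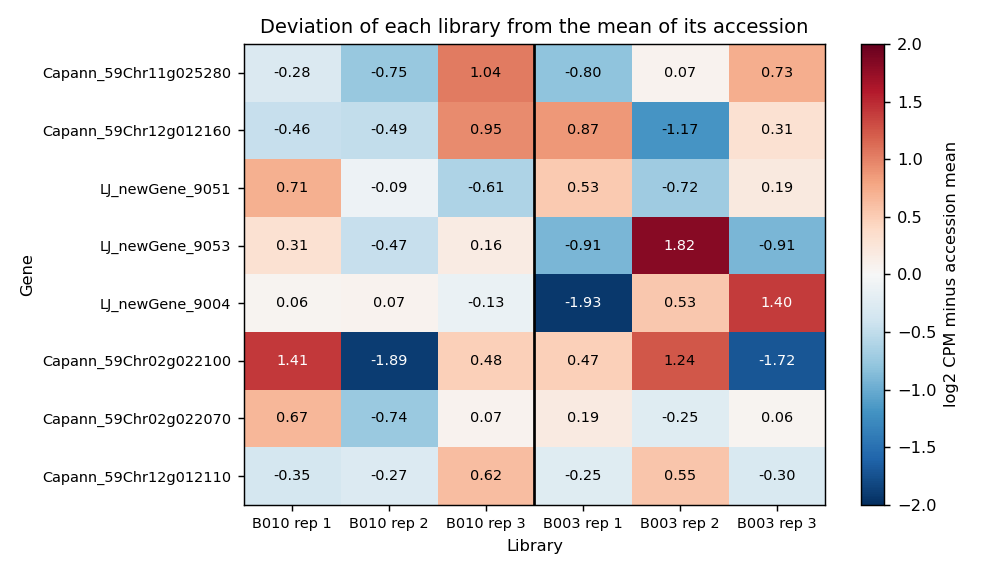
Deviation of the log2 CPM of each library from the mean of its own accession, for the 8 auxin signaling genes (rows) and 6 libraries (columns), in log2 units, red above and blue below the mean. Capann_59Chr02g022100 has the widest range in B010, from -1.89 in replicate 2 to 1.41 in replicate 1, and the large values of LJ_newGene_9053 and LJ_newGene_9004 in B003 rest on at most 8 counts.

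The genes with neighbouring identifiers were taken by identifier alone, and their p-values were adjusted over all genes. Of the neighbours named, the nearest ones were taken by position, while the DEGs with the largest change in each direction were picked for that change. Within 10 identifier steps of a cv.59 gene, or 10 numbers of an LJ_newGene locus, 47 other genes were listed and tested. Of these, 15 were DEGs, 7 higher in B010 and 8 higher in B003, which is 31.9% against 25.3% of all genes, and in 23 of the 47 the libraries did not overlap, against 54.4% of all genes. Among the 36 neighbours with cv.59 identifiers, 9 were DEGs, or 25%, against 24.1% of all such genes. Among the 11 LJ_newGene neighbours, 6 were DEGs, against 33.5% of the 3150 loci of this class. The median log2 fold change of the 47 neighbours was -0.09, and that of all tested genes was 0.01.

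On chromosome 2, Capann_59Chr02g022110, the next identifier after Capann_59Chr02g022100, followed it across the B010 libraries. Its B010 libraries held 187, 10 and 61 counts and its B003 libraries 0, 4 and 0. B010 replicates 1, 3 and 2 thus came in the same falling order in both genes. The log2 fold change of the neighbour was 5.55 (SE 1.36, adjusted p = 0.0235 by edgeR), and the adjusted p rose as far as 0.0788 among the alternatives. The call was lost without B010 replicate 1, without any one of the B003 libraries, with the replicate number as a block and by limma on log2(FPKM + 1). When all genes were ranked by how closely their centred log2 CPM followed those of Capann_59Chr02g022100 over the 6 libraries, this neighbour came 2nd of 24730, with a root mean square difference of 0.695 log2 units. This measure includes the difference between the accessions, for which Capann_59Chr02g022100 was chosen, and B003 levels at or near 0. Whether the 2 genes share reads was not tested.

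**Figure D4:**
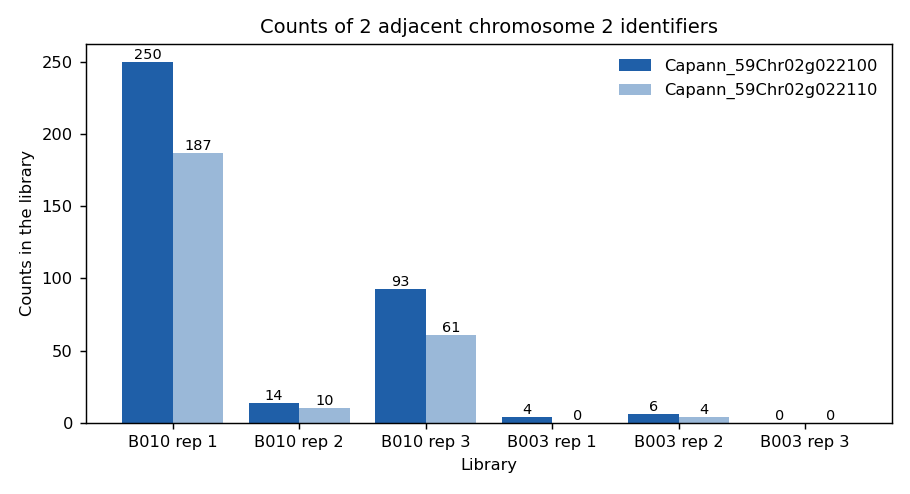
Counts of Capann_59Chr02g022100 (dark) and of the next identifier, Capann_59Chr02g022110 (light), in each of the 6 libraries. Both are highest in B010 replicate 1, at 250 and 187 counts, drop to 14 and 10 in B010 replicate 2, and are at or near 0 in B003.

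The other side of this run differed. Capann_59Chr02g022050, the nearest listed identifier before Capann_59Chr02g022070, averaged 68.6 ± 6.40 CPM across B010 and 66.6 ± 0.418 CPM across B003 (SD, n = 3 each), with a log2 fold change of 0.04 (SE 0.12, adjusted p = 0.785 by edgeR). One step further, Capann_59Chr02g022040 had 5.73, 4.46 and 5.602 CPM in B010 and 45.1, 33.4 and 30.03 CPM in B003. The direction was opposite to that of the auxin genes beside it, with a log2 fold change of -2.78 (SE 0.21, adjusted p = 0.00101 by edgeR), and it was called under all alternatives. Of the 12 neighbours on chromosome 2, 3 were DEGs, or 25% against 25.3% of all genes.

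On chromosome 12, the listed genes nearest to the crossing of directions were not called. Capann_59Chr12g012140, the only listed gene between Capann_59Chr12g012110 and Capann_59Chr12g012160, averaged 2.24 ± 0.228 CPM across B010 and 3.18 ± 1.26 CPM across B003 (SD, n = 3 each), with a log2 fold change of -0.51 (SE 0.32, adjusted p = 0.245 by edgeR). The genes on either side, Capann_59Chr12g012100 and Capann_59Chr12g012190, had log2 fold changes of -0.30 (SE 0.11, adjusted p = 0.0791 by edgeR) and 1.54 (SE 1.22, adjusted p = 0.348 by edgeR). The libraries of the former did not overlap and DESeq2 gave it an adjusted p of 0.0236 without reaching the fold-change limit, and the value of the latter is imprecise, ranging from 0.76 without B010 replicate 2 to 3.34 without B003 replicate 1. Of the 8 neighbours here, 1 was a DEG, or 12.5% against 25.3% of all genes. This was Capann_59Chr12g012220, with 0.800, 0.834 and 0.796 CPM in B010 and 3.03, 2.52 and 2.60 CPM in B003 (log2 fold change -1.74, SE 0.22, adjusted p = 0.00313 by edgeR).

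On chromosome 11, 5 of the 16 neighbours of Capann_59Chr11g025280 were DEGs, or 31.25% against 25.3% of all genes, and 4 of the 16 were DEGs higher in B003, the direction of 12.8% of all genes. The immediate neighbours were not among them, since Capann_59Chr11g025270 and Capann_59Chr11g025290 had log2 fold changes of -0.08 (SE 0.15, adjusted p = 0.700 by edgeR) and -0.56 (SE 0.51, adjusted p = 0.418 by edgeR). Capann_59Chr11g025300, one step further, had 2.63, 4.97 and 6.07 CPM in B010 and 48.8, 13.5 and 26.4 CPM in B003, a log2 fold change of -2.70 (SE 0.55, adjusted p = 0.0141 by edgeR) that missed the threshold without B010 replicate 1 (adjusted p by edgeR = 0.0554). Its B003 libraries were ordered otherwise than those of Capann_59Chr11g025280, in which replicate 1 was the lowest. Capann_59Chr11g025320 was the exception that was higher in B010, with a log2 fold change of 1.77 (SE 0.45, adjusted p = 0.0258 by edgeR), and its call was lost without B010 replicate 1 or 2 and without B003 replicate 2 or 3. The median log2 fold change of the 16 genes was -0.60.

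Around the LJ_newGene loci, some neighbours were detected in a single accession. LJ_newGene_9009 had 20.8, 22.0 and 22.8 CPM in B010 and no count in any B003 library, so it was at least 242-fold higher in B010 when 3 counts per library are taken as the limit (adjusted p by edgeR = 0.000847). LJ_newGene_9008, named after its values were seen, was also at 0 in B003 and at least 133-fold higher in B010. LJ_newGene_9057 was at 0 in B010 and had 3.59, 2.78 and 1.302 CPM in B003, at least 29.4-fold higher (adjusted p by edgeR = 0.00580), a call that limma on log2(FPKM + 1) did not make. The nearest numbers to LJ_newGene_9004, which are LJ_newGene_8997 and LJ_newGene_9006, were not called, with log2 fold changes of 0.12 (SE 0.22, adjusted p = 0.699 by edgeR) and -0.70 (SE 0.54, adjusted p = 0.338 by edgeR). Beside LJ_newGene_9051 and LJ_newGene_9053, LJ_newGene_9055 was not called, with a log2 fold change of -0.27 (SE 0.19, adjusted p = 0.296 by edgeR). LJ_newGene_9028, the nearest listed number below them at 23 steps, had a log2 fold change of 0.72 (SE 0.11, adjusted p = 0.00532 by edgeR), under the limit of 1. Whether LJ_newGene numbers follow the order along a chromosome is not given in the sources used here.

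**Figure D5:**
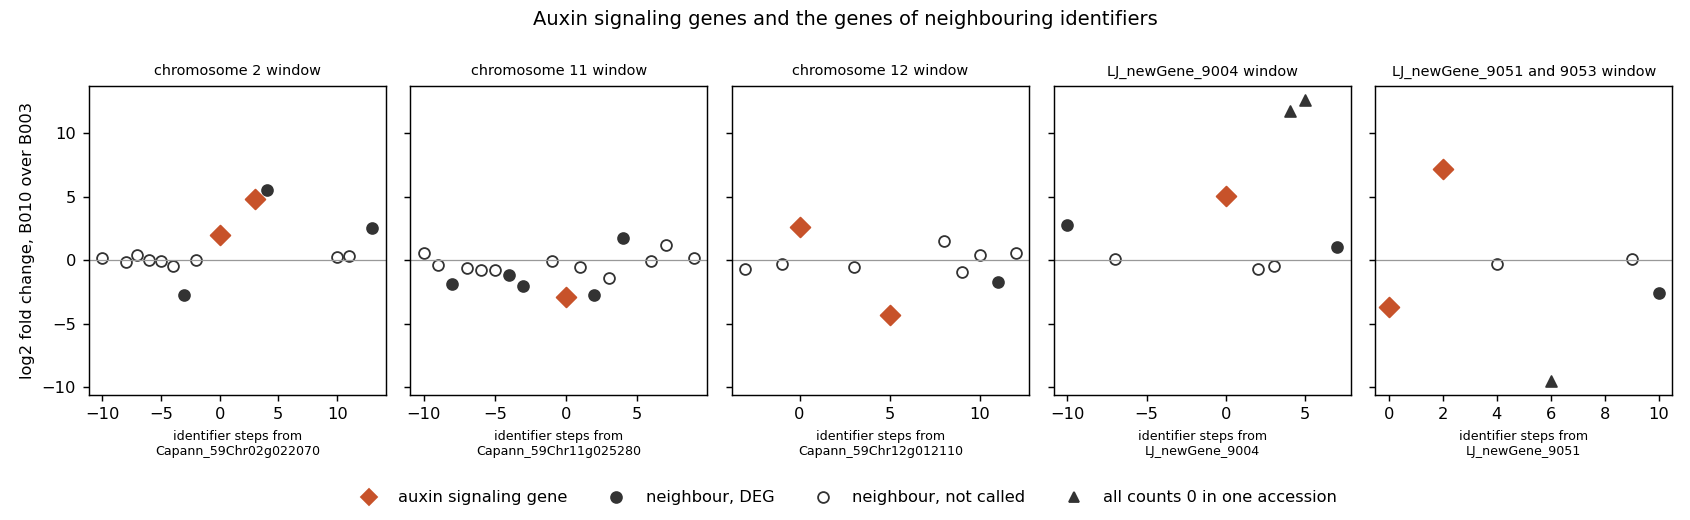
Log2 fold change of B010 over B003 (vertical axis) against identifier steps (horizontal axis) for the auxin signaling genes (orange diamonds) and their identifier neighbours (filled, DEG; open, not called). Triangles mark neighbours with no count in one accession, whose fitted values are no bounds, and the diamonds point in opposite directions on chromosome 12 and in the panel of LJ_newGene_9051 and LJ_newGene_9053.

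Some genes elsewhere followed the auxin signaling genes closely over the 6 libraries, as measured by the root mean square difference of centred log2 CPM. This measure includes the difference between the accessions, for which the 8 genes were chosen. The closest match of all was LJ_newGene_6094 to Capann_59Chr12g012110, at 0.128 log2 units, followed for this gene by Capann_59Chr12g030740 at 0.189. Capann_59Chr11g025280 was followed by Capann_59Chr02g037810 at 0.186 and by Capann_59Chr12g024870 at 0.188, the latter a scarce transcript with at most 1.89 CPM that is also on the primer list of the study. For Capann_59Chr12g012160 the nearest genes were Capann_59Chr12g013290 at 0.326 and Capann_59Chr06g018320 at 0.449. LJ_newGene_9051 was nearest to Capann_59Chr05g003870 at 0.203 and LJ_newGene_4788 at 0.346. LJ_newGene_9053 was nearest to Capann_59Chr11g018290 at 0.268 and LJ_newGene_2924 at 0.279, both of which had a single B003 library above 0, as it had. For LJ_newGene_9004 the nearest genes, Capann_59Chr03g040990 and Capann_59Chr04g028540, were 0.378 and 0.536 log2 units away. Capann_59Chr02g022100 was nearest to Capann_59Chr07g032560, at 0.475, ahead of the adjacent identifier, and Capann_59Chr02g022070 to Capann_59Chr06g034740 and Capann_59Chr03g017410, at 0.254 and 0.260. Among the 8 genes themselves, Capann_59Chr02g022070 and Capann_59Chr12g012110 were the most alike, at 0.741. Each gene had closer matches outside the list, where 24730 genes were searched, than within it. With so many more genes outside, this does not show whether the 8 genes share a pattern.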

How the data were processed

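The values came from 6 RNA-seq libraries of the first branch site, 3 of B010 and 3 of B003. The authors filtered the paired reads, aligned them with HISAT2 to the cv.59 genome and deposited raw counts per gene. The counting program is not given in the sources used here, although the submitters' processing notes also name StringTie. The deposited FPKM divide by exon length and by mapped reads of the library, per the authors. Columns were matched to samples by the names that the deposited table explains. Its columns with the authors' own log2 fold changes, p-values, q-values and calls were not used.

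Differences in counts were assessed in R 4.3.3 by edgeR 4.0.16 (filterByExpr, which removed 91 genes, TMM, and the quasi-likelihood test with accession as the only term), with Benjamini-Hochberg adjustment over all 24738 tested genes. Standard errors are the log2 fold change over the square root of F. Log2 CPM for deviations and likeness used a prior count of 1. Replicate libraries differed beyond sampling noise, with a chi-square per degree of freedom of at least 28.7. Genes were named by rule: the 8 auxin signaling genes, identifiers between and next to them, the DEG neighbour with the largest change in each direction per window, and the 2 most similar genes for each. The 8 genes, windows and lists were chosen with earlier results of these data known. Alternatives were DESeq2 1.42.0, limma 3.58.1 on log2(FPKM + 1) and log2(FPKM + 0.1), other scaling, filters, fold-change limits and windows, a replicate block, and leaving out each library. None of the 24829 identifiers matched the gene table of assembly UCD10Xv1.1, which gave 0 names.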

Additional observations from a re-analysis of the deposited data

How the results depend on the processing

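The number of DEGs over all genes ran from 3615 to 6967 when each library was left out in turn. The lowest counts were 3615 without B010 replicate 1 and 4117 without B003 replicate 3. It was 9598 with no fold-change limit and 3229 with a limit of 2. The DESeq2 Wald test called 7279 genes, and limma on log2(FPKM + 0.1) without a filter called 6006. Among the identifier neighbours, the 15 DEGs became 9 by limma on log2(FPKM + 1), with or without a filter on FPKM. Over all genes, these limma fits called 4793 with that filter and 4791 without it. The DEGs among the neighbours ran from 10 to 15 when each library was left out. With a window of 5 steps, 9 of 25 neighbours were DEGs (36%), and with 20 steps, 27 of 89 (30.3%). With the replicate number as a block, 14 neighbours, 7 of the 8 auxin signaling genes and 5458 genes were called, and Capann_59Chr02g022110 lost its call (log2 fold change 5.19, adjusted p = 0.0767 by edgeR). Same-numbered libraries had correlations of deviations of -0.00318, 0.0763 and 0.178 for replicates 1, 2 and 3, not each above 0.1. B010 replicate 1 was closest to B003 replicate 2 (0.0861), while B010 replicates 2 and 3 were closest to the B003 library of the same number. Whether same-numbered libraries share a batch was not tested. The summed FPKM ratio of B003 over B010 was 2.06 without Capann_59Chr12g012160. With each library left out, this ratio over the 8 genes ran from 3.13 without B010 replicate 2 to 5.10 without B010 replicate 3. Summed CPM gave a ratio of 2.96. Each of the 8 auxin signaling genes kept its direction under its 13 to 15 alternatives, but log2(FPKM + 1), a scale that understates the change of low genes, gave smaller log2 fold changes. They were 2.22 for LJ_newGene_9053, 1.25 for LJ_newGene_9004, 1.15 for Capann_59Chr02g022100, 0.56 for Capann_59Chr02g022070, 1.69 for Capann_59Chr12g012110 and -0.96 for LJ_newGene_9051. Neighbours that were not called and changed sign were Capann_59Chr02g022050 (log2 fold change -0.00473 without B010 replicate 1, and up to 0.11 without another library), Capann_59Chr11g025270 (0.00837 without B010 replicate 2, down to -0.22), LJ_newGene_8997 (-0.0336 without B010 replicate 3 and -0.0482 without B003 replicate 1, up to 0.26) and LJ_newGene_9006 (0.135 without B003 replicate 1, down to -0.998). The cause of these changes was not tested. Depth limits the low side of LJ_newGene_9053, LJ_newGene_9004 and Capann_59Chr02g022100, which rests on at most 8 counts per library.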
